A study of Mus musculus with 14 samples.

Results

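The mitochondrial ribosomal protein genes are the nuclear genes that encode the protein part of the ribosome inside mitochondria. They were taken from the exon and intron expression files of 2 mice as all genes whose symbol is Mrps or Mrpl followed by a number and, for some, a letter. This gave 78 of 20550 listed genes, of which 29 carry a small-subunit (Mrps) symbol and 49 a large-subunit (Mrpl) symbol. The rule used names alone and no measured value. All 78 were found in the RefSeq annotation of GRCm38, the assembly also called mm10.

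The mitochondrial ribosome translates the few messenger RNAs encoded by mitochondrial DNA, all of which specify subunits of the respiratory chain and ATP synthase. Its ribosomal RNAs come from mitochondrial DNA, whereas its proteins are made in the cytosol and imported. The small subunit binds messenger RNA and decodes it, and the large subunit forms peptide bonds and releases the new chain at the inner membrane. Many members descend from bacterial ribosomal proteins and others are found in mitochondria alone. The lactating mammary gland is a tissue with a high demand for energy and protein synthesis.

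Total RNA-seq was performed on mammary tissue of 2 wt/Wap-Tbrg4 mice at day 10 of lactation. These mice carry one wt allele and one allele in which CRISPR-Cas9 deletion joined the first exons of *Wap* and *Tbrg4*, made in C57BL/6 zygotes. No other genotype is analysed here, so the 2 mice, called replicate 1 and replicate 2, serve as replicates of a single group and no test between groups can be made. *Tbrg4*, also called *Fastkd4*, belongs to the FASTK family of mitochondrial RNA-binding proteins. It was listed at 314.7 and 291.5 exon FPKM (fragments per kilobase, scaled between libraries by a total that is not stated). The age of the mice is not given in the sources used here.

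Exon FPKM of all genes summed to 852961 in replicate 1 but to 1788119 in replicate 2, of which 79.5% and 90.6% came from the 10 most abundant genes. The casein gene *Csn2* was listed at 108555 and 481937, and all 7 markers of secretory epithelium stood at 8265 or more in each mouse. Summed levels of 5 adipocyte markers were 1292 and 1120, of 3 endothelial markers 46.1 and 40.1, of 3 macrophage markers 11.7 and 7.6 and of 3 skeletal muscle markers 20.4 and 7.5. Those of 3 lymphocyte and plasma cell markers were 107.4 and 89.8, nearly all from a single marker in each mouse (107.4 and 89.3). The 4 myoepithelial markers summed to 43.4 and 32.5, with *Acta2* listed at 0 in both. Of the 2 genes taken as brown adipocyte markers, *Ucp1* was listed at 0 while *Cidea* was at 1865 and 1484. The 2 genes thus did not go together, and *Cidea* alone is not taken here as a sign of brown adipocytes. The part of these cell types in the members' values was not tested, and in whole tissue fewer cells of a type and less RNA per cell cannot be told apart. Without the 10 most abundant genes the sums were 174946 and 168597.

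Nearly all members were expressed. A mean exon FPKM of at least 1 was reached by 73 of 78 members, compared with 9845 of 20515 genes with a usable symbol (48%). Exon levels of the members had a median of 10.15 FPKM in replicate 1, 9.8 in replicate 2 and 9.825 on the mean of both mice. This median exceeded the values of 84.6% of all genes and of 67.9% of the genes with at least 1 FPKM. The middle 50% of members lay between 4.75 and 19.1 FPKM. The members together held 0.139% of the summed exon FPKM in replicate 1 and 0.0560% in replicate 2. Without the 10 highest genes in the total, these shares were 0.679% and 0.594%.

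**Figure D1:**
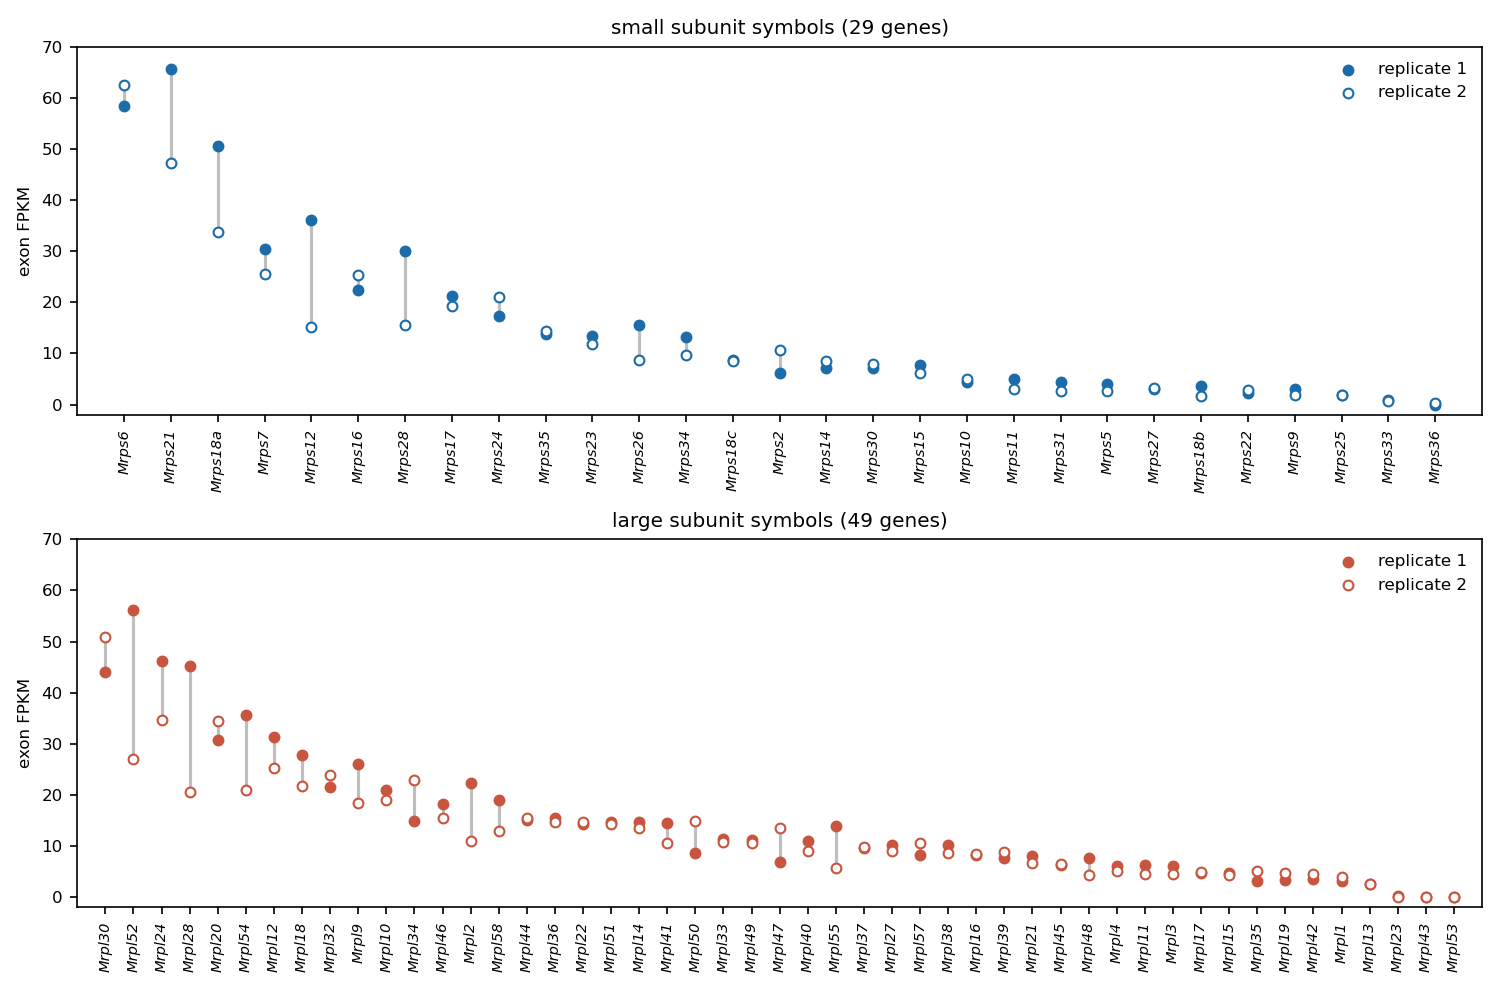
Exon FPKM of each of the 29 small-subunit and 49 large-subunit genes, ordered by the mean, with replicate 1 as filled and replicate 2 as open points joined by a line. Levels run from 60.5 (*Mrps6*) to 0.15 (*Mrps36*) in the small and from 47.45 (*Mrpl30*) to 0 (*Mrpl43* and *Mrpl53*) in the large subunit.

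In the small subunit, *Mrps6* had the highest mean, with 58.5 and 62.5 FPKM in replicates 1 and 2. *Mrps21* followed with 65.7 and 47.3, so that the order of both genes changed with the mouse. Both encode homologs of bacterial small-subunit proteins. *Mrps18a* was listed at 50.6 and 33.8, *Mrps7* at 30.4 and 25.5, and *Mrps12* at 36.1 and 15.2. *Mrps12* encodes the homolog of the bacterial protein at the decoding center, the site where codons are read. *Mrps7*, the homolog of a protein that organizes the head of the subunit, overlapped in level with *Mrps12*. The lowest small-subunit genes above 1 FPKM were *Mrps22* (2.3 and 2.9), *Mrps9* (3.0 and 1.9) and *Mrps25* (1.8 and 1.9). *Mrps22* and *Mrps25* encode proteins without a bacterial counterpart.

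In RefSeq, *Mrps6* shares 18.6% of its exon bases with *Slc5a3*, a sodium/myo-inositol transporter gene on the same strand that was listed at 0 in both mice. In GENCODE it shares 36.5% with *Slc5a3* and *Gm49711* on the same strand. *Mrps25* shares 58.4% of its exon bases in RefSeq and 75.8% in GENCODE with *Nr2c2* on the opposite strand, which was listed at 7.0 and 8.6 FPKM. How reads in shared stretches were counted is not given in the sources used here.

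In the large subunit, *Mrpl30* was highest on average, with 44.1 and 50.8 FPKM. *Mrpl52* was listed at 56.1 and 27.1, *Mrpl24* at 46.2 and 34.7, *Mrpl28* at 45.3 and 20.6 and *Mrpl20* at 30.7 and 34.5. The ranges of these 5 genes over the mice overlapped, except that *Mrpl20* stayed below *Mrpl30* and *Mrpl24* in both mice. *Mrpl52* encodes a protein found in mitochondria alone, whereas the other 4 are homologs of bacterial large-subunit proteins. The lowest members above 1 FPKM were *Mrpl1* (3.1 and 4.0) and *Mrpl13* (2.6 and 2.5). *Mrpl1* encodes the homolog of the protein in the stalk where used transfer RNA leaves the ribosome.

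The subunits differed little in their medians. The median exon FPKM was 7.8 and 8.6 for the small subunit and 10.9 and 10.6 for the large subunit in replicates 1 and 2. On the log2(FPKM + 1) scale, the small subunit was lower by a difference of -0.25 on the mean of both mice, with -0.44 in replicate 1 and -0.27 in replicate 2. The middle 50% of genes spanned 3.35 to 20.25 FPKM in the small and 5.55 to 16.8 in the large subunit and so overlapped almost fully. Genes are not replicates of a condition, and no test was made.

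Some symbols do not match the place of the protein in mitoribosome structures. *Mrps18a* and *Mrps30* encode proteins of the large subunit, and *Mrps36* encodes a component of the 2-oxoglutarate dehydrogenase complex. With these genes moved or left out, the difference between subunits was -0.24, with 26 small-subunit and 51 large-subunit genes.

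The 3 lettered genes encode paralogs of a single bacterial protein, and their levels were far apart. *Mrps18a* was highest, with 50.6 and 33.8 FPKM. *Mrps18c*, whose product holds the place of the bacterial protein in the small subunit, was listed at 8.7 and 8.5, and *Mrps18b* at 3.7 and 1.7. The 3 ranges over the mice did not overlap. In *Mrps18b*, 64.5% of exon positions begin a stretch of 50 bases that also occurs elsewhere in the genome. In GENCODE, *Mrps18b* shares 57.0% of its exon bases with genes on the opposite strand. *Mrps18c* shares 32.7% with *Gm43511* on the same strand. The part of these features in the levels of the paralogs was not tested.

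By the nomenclature of mitoribosome structures, 46 members are homologs of bacterial ribosomal proteins and 31 are specific to mitochondria. *Mrps18a* and *Mrps18b* are counted as mitochondrion-specific by these names, although they are related to the same bacterial protein as *Mrps18c*, which is counted as a homolog. Medians of the homologs and of the mitochondrion-specific members were 12.55 and 9.6 FPKM in replicate 1 and 10.8 and 8.9 in replicate 2. The gap was wider in the small subunit, where 16 homologs had a median of 13.05 and 12.9 FPKM in replicates 1 and 2 and 10 mitochondrion-specific genes one of 4.05 and 3.1. Here the homologs ranged from 2.45 (*Mrps9*) to 60.5 (*Mrps6*) and the mitochondrion-specific genes from 0.75 (*Mrps33*) to 14.2 (*Mrps35*). In the large subunit, 30 homologs had a median of 12.55 and 10.8 and 21 mitochondrion-specific genes one of 10.1 and 10.6. Over both subunits the log2 difference was 0.12 on the mean of both mice, and it turned to -0.089 when members with a copied coding sequence or shared exons were left out.

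Of the members, 5 had a mean exon FPKM under 1, and 4 of these encode proteins of the mitoribosome. *Mrps33* was listed at 0.8 and 0.7, *Mrpl23* at 0.2 and 0.0, *Mrps36* at 0.0 and 0.3, and *Mrpl43* and *Mrpl53* at 0 in both mice. *Mrpl23* encodes the homolog of a bacterial protein beside the exit tunnel for the new chain. *Mrps33*, *Mrpl43* and *Mrpl53* are mitochondrion-specific. Other genes that cells require were also listed at 0, among them *Polrmt*, which encodes the mitochondrial RNA polymerase. A value of 0 is therefore given only as listed.

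Coding sequences of the members were aligned to the genome to find copies elsewhere. At an identity of at least 95% over at least 50% of the coding length, 20 of 78 members had such a copy (25.6%), compared with 1834 of 18310 genes with a coding sequence (10.0%). Among members with a copy over at least 80% of the length, the identity of the best copy was at least 99% for 3, and these were *Mrpl23*, *Mrps33* and *Mrps36*, all under 1 FPKM. In this class of identity, 441 of 662 genes overall (66.6%) and 21 of 56 cytosolic ribosomal protein genes (37.5%) were under 1 FPKM, compared with 46.0% of genes without an aligned copy. For 8 members it was 97 to 99%, with mean exon FPKM from 4.75 to 56.5 and a median of 11.05. For 7 it was 95 to 97%, with a range from 3.95 to 47.45. For 9 it was under 95%, with a range from 6.35 to 32.6. In 51 members no copy aligned over that length, and their median was 9.75 FPKM.

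The copy of *Mrpl23* matches all 441 coding bases without a difference and lies without introns at chr2:74591452-74591892, while the gene itself has 5 exons on chr7:142533032-142540745. That of *Mrps33* differs at 1 of 321 coding bases and lies at chr7:54412158-54412478, with the gene on chr6:39801804-39810936. That of *Mrps36* differs at 2 of 309 bases and lies at chr17:53866712-53867020, with the gene on chr13:100735940-100744659. Stretches of 100 bases are shown because they show how closely gene and copy agree in the low members, with *Mrps21* as a member of high level whose copy differs at 7 of 264 bases. Capitals mark bases that differ between the gene and its copy, positions count from 1 at the first coding base, and the sequences were read from GRCm38.p6 on the coding strand.
Mrpl23 coding bases 1 to 100: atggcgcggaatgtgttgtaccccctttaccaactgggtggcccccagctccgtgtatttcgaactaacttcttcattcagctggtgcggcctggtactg
Mrpl23 copy chr2:74591793-74591892, minus strand: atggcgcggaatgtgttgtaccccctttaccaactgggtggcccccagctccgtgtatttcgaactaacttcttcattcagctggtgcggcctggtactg
Mrps33 coding bases 121 to 220: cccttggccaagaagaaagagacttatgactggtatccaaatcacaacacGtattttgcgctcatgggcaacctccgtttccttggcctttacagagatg
Mrps33 copy chr7:54412259-54412358, minus strand: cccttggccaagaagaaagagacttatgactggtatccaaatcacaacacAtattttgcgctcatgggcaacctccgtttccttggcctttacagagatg
Mrps36 coding bases 26 to 125: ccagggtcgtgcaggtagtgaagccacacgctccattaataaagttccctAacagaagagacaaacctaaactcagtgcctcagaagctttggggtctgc
Mrps36 copy chr17:53866896-53866995, minus strand: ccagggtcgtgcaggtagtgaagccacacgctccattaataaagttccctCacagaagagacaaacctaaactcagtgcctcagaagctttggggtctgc
Mrps21 coding bases 1 to 100: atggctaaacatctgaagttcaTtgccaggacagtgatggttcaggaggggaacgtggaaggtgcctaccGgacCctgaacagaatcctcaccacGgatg
Mrps21 copy chr7:52755465-52755564, plus strand: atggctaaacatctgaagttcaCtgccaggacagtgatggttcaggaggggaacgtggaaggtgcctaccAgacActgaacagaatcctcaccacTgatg
In these stretches the gene and the copy differ at none of the bases for *Mrpl23*, at G171A for *Mrps33*, at A76C for *Mrps36*, and at T23C, G71A, C75A, G96T for *Mrps21*, with the base of the gene given first.

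A second measure, chosen after the values had been seen, was the share of exon positions whose 50 bases occur word for word at another place of the genome. It was 50% or more in 5 members, which were *Mrps36* (86.3%), *Mrpl23* (73.2%), *Mrps18b* (64.5%), *Mrps5* (51.6%) and *Mrps33* (50%). Their mean exon FPKM ran from 0.1 to 3.35, with a median of 0.75. The coding sequence of *Mrps18b* has a copy over 54.6% of its length at an identity of 99.8%. In 6 members the share was 25 to 50%, with levels from 4.75 to 56.5 FPKM and a median of 12. Here *Mrps21*, with 49.0% of positions repeated, was the second highest of all members. In the other 67 members the median was 10.85. The classes depended on the length of the stretch. With stretches of 100 bases the share was 51.2% in *Mrps21*, 45.2% in *Mrps33* and 40.6% in *Mrps5*. At that length *Mrps21* joined the members at 50% or more, and *Mrps33* and *Mrps5* fell below that cut. Across all 78 members, the share and log2(exon FPKM + 1) had Pearson's r of -0.36 and Spearman's rho of -0.21, a description over genes of the same libraries. Cytosolic ribosomal protein genes, many of which have copies, had 42 of 79 genes at 50% or more, with a median of 3.2 FPKM, and 15 genes under 25%, with a median of 37.45. Whether reads that map to several places were kept is not given in the sources used here, and the part of the copies in the low values was not tested.

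**Figure D2:**
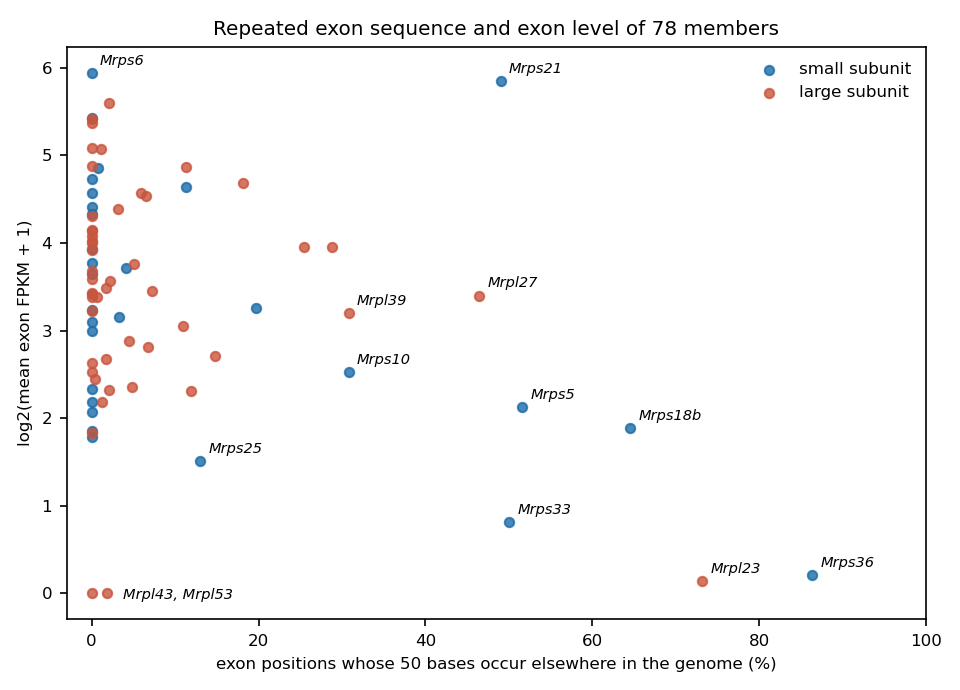
Share of exon positions whose 50 bases recur elsewhere in the genome (horizontal axis, percent) against log2(mean exon FPKM + 1) for the 78 members. The 5 members at 50% or more lie between 0.1 and 3.35 FPKM, whereas *Mrps21* at 49.0% has 56.5 FPKM and *Mrpl43* and *Mrpl53* are at 0 with almost no repeated sequence.

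*Mrpl43* and *Mrpl53* have no copy at these thresholds, and 1.88% and 0% of their exon positions were repeated. *Mrpl43* shares 31.7% of its exon bases with *Twnk*, the gene of the mitochondrial DNA helicase on the opposite strand, which was listed at 6.5 and 3.8 FPKM. *Mrpl53* shares 2.26% of its exon bases with *Ccdc142* in RefSeq. In GENCODE, all of its exons (100%) also lie within exons of *Gm42688* on the same strand. The part of these overlaps in the values was not tested.

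Values over introns, which can come from unspliced RNA or from genes that overlap the intron, were low in most members. Intron levels had a median of 0.3 FPKM in replicate 1 and of 0.4 in replicate 2 for all members, for the small and for the large subunit alike, compared with 0.4 and 0.4 for the 9845 genes with at least 1 exon FPKM. The values are deposited with 1 decimal, so most members span only a few steps. On the log2(FPKM + 0.1) scale, the small minus large difference was 0.17 on the mean of both mice and 0 within each mouse, and it turned to -0.085 when members whose introns overlap another gene or hold a small RNA gene were left out.

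*Mrpl24* had the highest intron level, with 4.0 and 3.7 FPKM. It encodes the homolog of a protein that starts the folding of large-subunit ribosomal RNA. It shares 37.4% of its exon bases and 16.3% of its intron bases with exons of *Rrnad1* on the opposite strand, which was listed at 2.6 and 1.8 exon FPKM. *Mrpl41* followed with 3.9 and 1.0 over only 206 bp of introns. *Mrps17* was listed at 1.3 in both mice, *Mrps18a* at 1.2 and 1.3, and *Mrps6* at 1.4 and 0.6. The mice thus agreed closely for *Mrpl24*, *Mrps17* and *Mrps18a*, whereas *Mrpl41* and *Mrps6* were lower in replicate 2.

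Values of 0 were most frequent in members with short introns. Of 10 members with introns under 1000 bp in all, 7 were listed at 0 in a mouse and 4 in both, while their highest mean was 2.45. Of 26 members with introns of 1000 to 5000 bp, 2 were listed at 0 in a mouse and 1 in both. Of 42 members with introns of 5000 bp or more, 3 were listed at 0 in a mouse and none in both. The median absolute log2 difference between the mice was 0.67, 0.22 and 0.42 in these classes and so did not follow length. *Mrpl17*, with 594 bp, was listed at 1.7 and 0.0. The 5 members at 0 in both mice were *Mrpl34* (182 bp), *Mrpl36* (268 bp), *Mrps2* (1033 bp), *Mrpl43* (216 bp) and *Mrpl53* (205 bp).

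The ratio of intron to exon level had a lower median in the members than over all expressed genes. Over the 73 members with at least 1 exon FPKM, the median of log2((intron + 0.1)/(exon + 0.1)) was -4.89 in replicate 1 and -4.46 in replicate 2, and -4.73 on the mean of both mice. Over all genes with at least 1 exon FPKM it was -3.62 and -3.51. It was -5.02 and -4.77 for cytosolic ribosomal protein genes and -6.31 and -5.85 for nuclear genes of the respiratory chain and ATP synthase. The lists differ in exon level, which enters the ratio, and the part of that difference was not tested. The lowest ratios were those of *Mrpl34* (-7.57), *Mrpl36* (-7.24), *Mrps12* (-7.01), *Mrps2* (-6.41) and *Mrps21* (-6.14). *Mrpl34*, *Mrpl36* and *Mrps2* were listed at 0 intron FPKM in both mice, so their ratios are set by the added 0.1 and the exon level. *Mrps12* joins exon levels of 36.1 and 15.2 to an intron level of 0.1 in each mouse. The highest were those of *Mrps18b* (-1.90), *Mrps9* (-2.21), *Mrpl41* (-2.31), *Mrpl17* (-2.35) and *Mrps10* (-2.35). *Mrps18b* was listed at 0.5 and 0.8 intron FPKM and *Mrps10* at 0.7 and 1.0, so that neither rests on a 0 in a mouse. In GENCODE, *Mrps18b* shares 57.0% of its exon bases with *Gm16279* and *Ppp1r10* on the opposite strand. The small RNA gene *Gm23126* lies within *Mrps9*. The part of these overlaps in the ratios was not tested.

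The small subunit had a higher ratio than the large subunit, with a difference of medians of 0.65 on the log2 scale and 0.35 and 0.54 within replicates 1 and 2. Among members with at least 10 exon FPKM the difference was -0.44, so its direction depended on the low members. Exon and intron levels of the 73 members had Pearson's r of 0.39 and Spearman's rho of 0.41 on log scales, compared with 0.65 and 0.63 over 9845 genes. These are descriptions across genes of the same libraries.

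**Figure D3:**
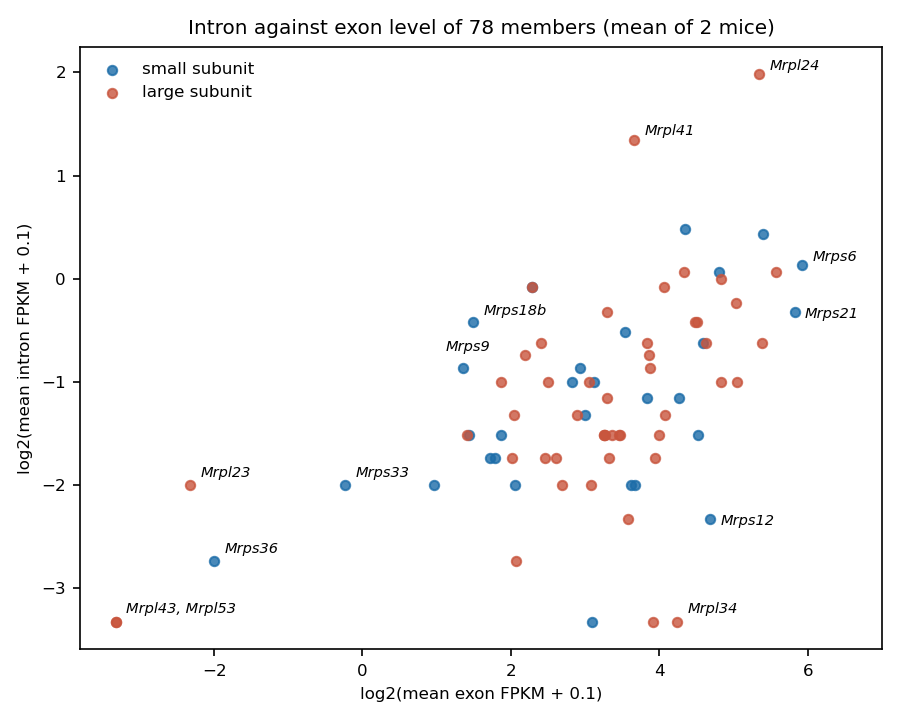
log2(mean intron FPKM + 0.1) against log2(mean exon FPKM + 0.1) of the 78 members, colored by subunit. *Mrpl24* and *Mrpl41* stand highest on the intron axis, *Mrps12* and *Mrpl34* combine a high exon with a low intron level, and *Mrpl23*, *Mrps33* and *Mrps36* lie to the left.

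The exon levels of the 2 mice followed each other, with Pearson's r of 0.92 and Spearman's rho of 0.93 over 73 members on the log2(FPKM + 1) scale, and 0.94 and 0.92 over 9845 genes. More members were lower in replicate 2 (44) than higher (29). The same held over all 9845 genes with at least 1 FPKM, of which 5455 were lower and 4184 higher. The median log2 ratio of replicate 2 to replicate 1 was -0.13 for the members, compared with -0.08 for these genes. With 1 added to each FPKM, 4 of 73 members were past 2-fold between the mice. The background on the same scale was 581 of 9845 genes (5.9%), with 4.82% lower and 1.08% higher in replicate 2, so the members' count was near that of all genes.

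All 4 members past 2-fold on this scale were lower in replicate 2. *Mrps12* was listed at 36.1 and 15.2 FPKM (log2 ratio -1.20), *Mrpl55* at 13.8 and 5.7 (-1.14), *Mrpl28* at 45.3 and 20.6 (-1.10) and *Mrpl52* at 56.1 and 27.1 (-1.02). *Mrpl2*, the homolog of a protein at the peptidyl transferase center, came next with 22.3 and 10.9 (-0.97). Without the added 1, *Mrpl2* (2.05-fold) and *Mrps18b* (3.7 and 1.7, 2.18-fold) were also past 2-fold, both lower in replicate 2. Higher in replicate 2 were *Mrpl47* with 6.9 and 13.5 (0.88), *Mrpl50* with 8.7 and 14.9 (0.71), *Mrps2* with 6.2 and 10.6 (0.69), *Mrpl34* with 14.9 and 22.8 (0.58) and *Mrpl35* with 3.2 and 5.0 (0.51). *Mrps6*, *Mrpl30* and *Mrpl20*, 3 of the most abundant members, were slightly higher in replicate 2.

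The difference between the mice went with base composition. Over 73 members the log2 ratio and the GC content of the exons had Pearson's r of -0.48 and Spearman's rho of -0.47, and over 9838 genes -0.64 and -0.66. Of 37 members at or above the median GC content of 51.5%, 25 were lower in replicate 2, with a median log2 ratio of -0.24. Of 36 members below it, 19 were lower, with a median of -0.035. After a lowess fit over GC content across all genes was subtracted, the median of the members was 0.00071 and 1 member, *Mrpl34*, was past 2-fold, at 1.18. The cause of the relation to GC content was not tested.

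**Figure D4:**
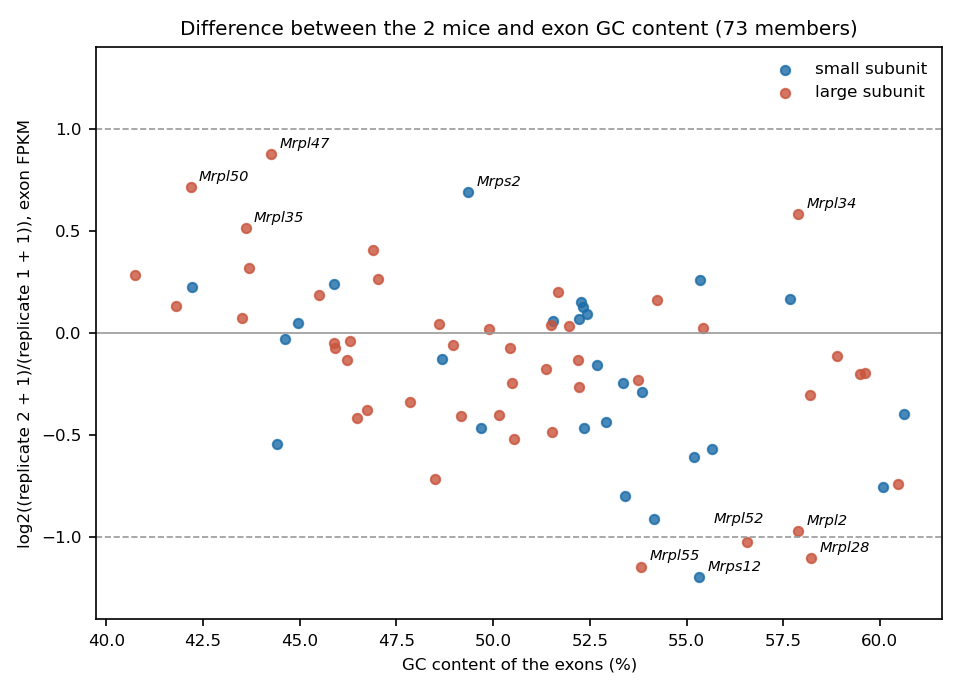
log2 ratio of replicate 2 to replicate 1, each with 1 added to the exon FPKM, against the GC content of the exons for 73 members. Dashed lines mark a 2-fold difference, and the points below the lower line (*Mrps12*, *Mrpl55*, *Mrpl28* and *Mrpl52*) all have GC contents of 53.8% or more.

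Members with short exons had the higher exon levels. The exon length and log2(exon FPKM + 1) of 73 members had Pearson's r of -0.48 and Spearman's rho of -0.49, compared with -0.13 and -0.13 over 9838 genes. The median exon length was 1130 bp for the members and 3120 bp for genes with at least 1 FPKM. *Mrpl52* (412 bp), *Mrps21* (510 bp) and *Mrpl30* (772 bp) were short and high, while *Mrpl17* (6712 bp) and *Mrps25* (6076 bp) were long and low. FPKM are divided by the length of the exons, and the lengths here come from RefSeq and not from the annotation the authors used.

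The genes of the mitoribosome often start close to another gene. In 31 of 78 members (39.7%) the start of a gene on the opposite strand lay within 1000 bp, compared with 12.8% of all genes and 17.3% of genes with at least 1 FPKM. Some related lists were also high, with 33.3% of mitoribosome assembly genes and 29.8% of respiratory chain and ATP synthase genes. The share was 33.3% for 6 mitoribosomal genes with other symbols and 23.5% for mitochondrial transcription and RNA handling. It was 16.7% for mitochondrial translation factors and 16.5% for cytosolic ribosomal protein genes. A single pair joins members to each other and counts as 2 of the 31. *Mrpl46* and *Mrps11* start 42 bp apart, and *Mrpl46* was listed at 18.2 and 15.4 FPKM and *Mrps11* at 5.1 and 3.0. *Mrps12* starts 147 bp from *Sars2*, the gene of mitochondrial seryl-tRNA synthetase, which was listed at 1.2 and 0.6. *Mrpl47* starts 308 bp from *Ndufb5*, a subunit of respiratory complex I, which was listed at 104.7 and 74.2. *Sars2* and *Ndufb5* are examples, and partners with a mitochondrial role were not counted. Other partners include *Hira* (113 bp from *Mrpl40*), *Psma2* (205 bp from *Mrpl32*) and *Tcp1* (238 bp from *Mrpl18*).

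Promoters from 250 bases before to 50 bases after the start were available for 69 members in RefSeq. CCGGAAG, the core recognized by ETS factors, was found on either strand in 26 of 69 (37.7%), compared with 21.4% of promoters of genes with at least 1 FPKM and 13.9% of all promoters. GCGCANGCG, part of the sequence recognized by NRF1, a factor known for its role in mitochondrial gene expression, was found in 16 (23.2%), compared with 16.1% and 10.5%. AAGATGGCG, recognized by YY1, was found in 8 (11.6%), compared with 4.04% and 2.39%. TGACGTCA, the CRE sequence, was found in 2 (2.9%), compared with 3.69% and 2.80%. By subunit, the NRF1 letters were found in 4 of 26 small-subunit (15.4%) and 12 of 43 large-subunit promoters (27.9%), and the ETS core in 11 (42.3%) and 15 (34.9%). Promoters of respiratory chain and ATP synthase genes held the NRF1 letters in 29.4% and the ETS core in 23.5%, and those of cytosolic ribosomal protein genes in 13.6% and 42.4%. Each sequence was counted separately, so that a promoter may hold several of them. Members with the NRF1 letters had a median of 14.3 exon FPKM and those without 9.7, and for the ETS core the medians were 10.275 and 9.9. For the YY1 sequence they were 6.9 with and 10.2 without it, and for CRE 9.6 and 9.9. A match is a description of the sequence and not evidence of binding.

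The promoters of *Mrps21* and *Mrpl30* are shown because these are the most abundant member of each subunit with the NRF1 letters. Capitals mark matches to the sequences named above, and both are read 5′ to 3′ on the strand of the gene.
Mrps21 promoter chr3:95871465-95871764, minus strand: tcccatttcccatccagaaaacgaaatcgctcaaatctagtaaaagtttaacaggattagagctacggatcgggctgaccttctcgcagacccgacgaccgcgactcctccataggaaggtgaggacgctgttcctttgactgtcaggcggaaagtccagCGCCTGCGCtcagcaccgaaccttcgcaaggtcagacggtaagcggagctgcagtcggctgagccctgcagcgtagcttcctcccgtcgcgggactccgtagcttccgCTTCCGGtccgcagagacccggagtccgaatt
Mrpl30 promoter chr1:37890227-37890526, plus strand: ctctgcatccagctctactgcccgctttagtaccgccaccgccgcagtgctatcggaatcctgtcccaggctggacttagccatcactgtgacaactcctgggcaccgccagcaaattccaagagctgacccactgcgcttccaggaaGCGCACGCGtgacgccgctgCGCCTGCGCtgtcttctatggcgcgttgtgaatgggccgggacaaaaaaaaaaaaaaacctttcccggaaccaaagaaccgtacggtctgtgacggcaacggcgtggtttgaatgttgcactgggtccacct
The promoter of *Mrps21* holds the NRF1 letters before the start and the ETS core after it. That of *Mrpl30* holds the NRF1 letters at 2 places before the start. The promoter of *Mrps6*, the member with the highest level, holds none of the 4 sequences.

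Most other lists of mitochondrial translation had lower medians than the members. A list of 6 genes with other symbols resembled the members, with medians of 13.7 and 11.85 FPKM and means from 4.35 (*Dap3*) to 39.6 (*Chchd1*). It holds mitoribosomal proteins whose symbols do not follow the rule and also *Oxa1l* (12.4 and 16.1). *Oxa1l* encodes an insertase of the inner membrane and not a ribosomal protein. Of 12 translation factors, which load, move and release the ribosome, 11 reached 1 FPKM, with medians of 3.3 and 2.75 and the highest mean for the elongation factor gene *Gfm1* (7.0 and 7.9), although *Tsfm* was higher in replicate 1 (8.5 and 3.0). Of 27 genes for assembly of the mitoribosome and modification of its RNA, 26 reached 1 FPKM, with medians of 3.6 and 3.3 and the highest mean for *Mpv17l2* (21.9 and 15.6), although *Malsu1* was higher in replicate 2 (16.8 and 18.7). Of 17 genes for mitochondrial transcription and RNA handling, 13 reached 1 FPKM, with medians of 2.9 and 4.3 and the highest level for *Tbrg4*, of which these mice carry the engineered allele joined to *Wap*. The nuclear genes of the respiratory chain and ATP synthase, which act with the products of mitochondrial translation, had medians of 57.1 and 47.8 over 84 genes. Cytosolic ribosomal protein genes had medians of 11.1 and 9.7 over 79 genes, with means from 0 to 534.9. Their median was 3.2 in the 42 genes with 50% or more repeated exon positions and 37.45 in the 15 genes under 25%. The part of copies in the medians of the lists was not tested. All comparisons between lists are descriptions of 2 mice without a test.

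**Figure D5:**
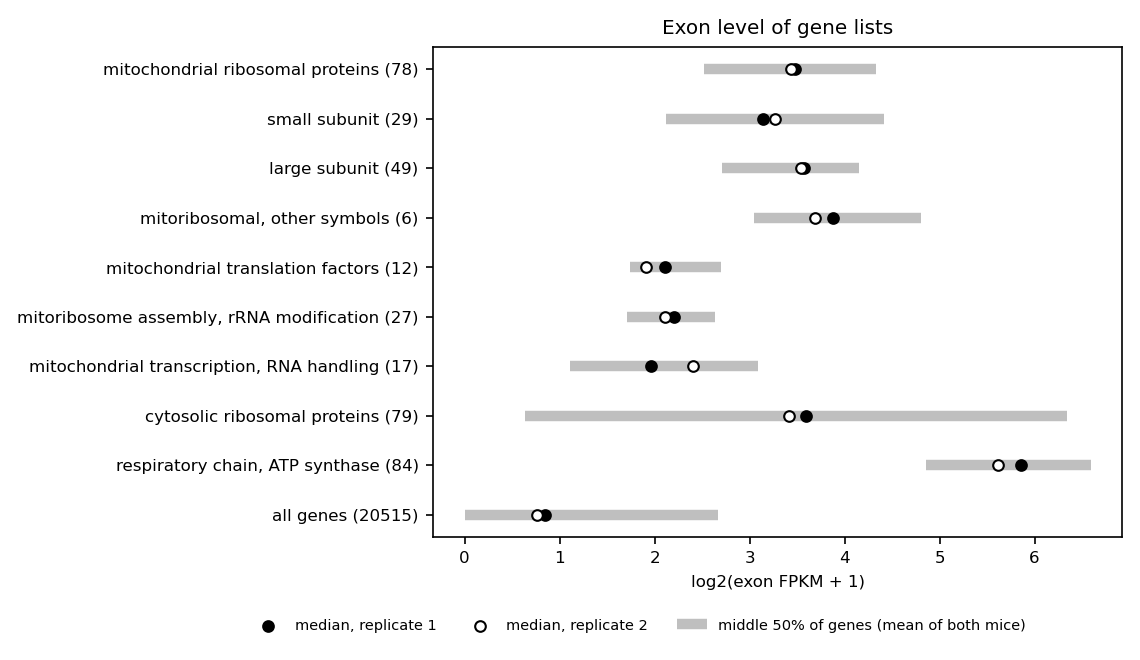
Median exon level of each gene list in replicate 1 (filled) and replicate 2 (open) on the log2(exon FPKM + 1) scale, with gray bars for the middle 50% of genes by the mean of both mice and the number of genes in brackets. The members lie at 10.15 and 9.8 FPKM, above the translation and assembly factors (2.75 to 3.6) and below the respiratory chain (57.1 and 47.8). The list of mitoribosomal proteins with other symbols also includes the insertase gene *Oxa1l*.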

How the data were processed

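Total RNA-seq of mammary tissue from 2 wt/Wap-Tbrg4 mice at day 10 of lactation was analysed, and the ChIP-seq samples were not analysed here. The authors mapped the reads to mm10 with STAR, counted them with HTSeq on the collapsed exons of UCSC known genes and on the introns between them, and used DESeq2 to obtain FPKM, which were deposited with 1 decimal. Read counts are not part of the values used here, so the depth is unknown and precision rests on the 2 mice. Versions, strand setting, scaling total and treatment of reads with several places are not given in the sources used here.

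The members and lists were chosen with earlier results of these data known. Of 20550 listed genes, 35 had no usable symbol. Lengths, GC content, positions and sequences came from RefSeq on GRCm38.p6, which matched 99.7% of the other genes, and overlaps also from GENCODE M21. Longest coding sequences were aligned with minimap2 2.31 (splice mode). Repeated stretches of 50 and 100 bases were matched exactly over the assembled chromosomes. Levels are given per mouse or as the mean of both mice. Log scales use a pseudocount of 1 for exons, and 0.1 for introns and for both parts of the intron to exon ratio. The 2 mice were compared over genes averaging 1 exon FPKM or more, and a lowess fit over 30% of the genes was used for GC correction and tested on simulated data. Named members are, in each subunit, the 5 highest and 5 lowest by exon FPKM, the 5 highest by intron FPKM, the 5 at either end of the intron to exon ratio and of the ratio between mice, and the lettered paralogs; other genes are named where a sequence, a position or a value singled them out after their values were seen. Alternatives to pseudocount, filter, scaling and mouse were run. Each result describes 2 mice of a single genotype, so no p-value is given. Fits used statsmodels 0.14.6, correlations scipy 1.17.1, tables pandas 2.3.3 and numpy 2.4.6, and plots matplotlib 3.10.9, all under Python 3.11.15.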

Additional observations from a re-analysis of the deposited data

How the results depend on the processing

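No paired analysis was possible because the 2 mice form a single group. Rescaling each mouse to a summed exon FPKM of 1000000 gave medians of 8.67 for the members, 6.63 for the small and 9.27 for the large subunit and a subunit difference of -0.43 (log2), and with the 10 highest genes left out of the total the medians were 57.0, 49.2 and 59.8. Restricting to members with at least 1 FPKM gave medians of 10.85 for all and 10.925 for the large subunit, and the geometric mean gave 9.85 for the large subunit. Leaving out replicates in turn gave medians of 9.8 to 10.15 for the members, 7.8 to 8.6 for the small and 10.6 to 10.9 for the large subunit, and subunit differences of -0.44 to -0.27. Intron medians were 0.3 to 0.4 for the members and for each subunit without either replicate, and 0.525, 0.55 and 0.5 for all members, the small and the large subunit among those with at least 10 exon FPKM. The subunit difference of introns, 0.17, was 0.12 among members with at least 10 exon FPKM, 0.054 with a pseudocount of 1, 0 without either replicate, -0.085 without members whose introns overlap another gene or hold a small RNA gene and -0.085 with the subunits of mitoribosome structures. The median intron to exon ratio was -5.23 among members with at least 10 exon FPKM and -3.16 with a pseudocount of 1, and its subunit difference was -0.44 in the former and 0.35 to 0.54 without either replicate. The count of members past 2-fold between the mice, 4 with a pseudocount of 1, was 6 with a pseudocount of 0.1. After GC correction 1 member was past 2-fold instead of 4 and the exon ratio between mice turned to 0.00071, and the intron ratio between mice, 0.19, was 0.087 with a pseudocount of 1 and 0 among members with at least 10 exon FPKM. The members' share of the summed exon FPKM was 0.0560% to 0.139% without either replicate and 0.637% with the 10 highest genes left out. The difference between bacterial homologs and mitochondrion-specific members, a comparison chosen after seeing the data, was 0.12 on the mean of both mice, 0.25 to 0.35 without either replicate, 0.19 rescaled and -0.089 without members with a copied coding sequence or shared exons. The causes of these changes were not tested. Of 84 alternatives to the summary values 45 stayed within the SD between the mice, within 0.1 for ratios between the mice, or within 1.5-fold for counts. Another 34 moved further and 5 changed sign. The share of summed FPKM is a mean of both mice, so leaving out a mouse could not move it past that SD. Depth is unknown, so values near 0.1 FPKM, the step of the deposited values, cannot be told from 0, and intron levels are most affected.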
